A study of Mus musculus with 6 samples.

Results

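The BCL2 family was followed through 10 genes, and 10 of 10 were found among the 19937 genes that the array names with a probe set of their own. They were chosen by symbol, as 4 anti-apoptotic genes (*Bcl2*, *Bcl2l1*, *Bcl2l2* and *Mcl1*) and 6 pro-apoptotic genes (*Bcl2l11*, *Bak1*, *Bid*, *Bad*, *Bmf* and *Bik*). Each has 1 probe set, so no choice between probe sets was needed. KO plasmacytoid dendritic cells (pDCs) came from Gfi1f/f; Gfi1bf/f; ERCre bone marrow of C57BL/6 mice, cultured with 1 µM tamoxifen, which turns on the Cre recombinase that removes the floxed alleles. WT pDCs came from the untreated part of the same marrow cultures, so they carry the same floxed alleles and the same Cre. There were 3 KO and 3 WT cultures, 1 of each from mice 1, 2 and 3, all with 25 ng/ml Flt-3L, and each sorted B220+ CD11c+ population was hybridised to a separate array (Affymetrix Mouse Gene 1.0 ST). Loss of the *Gfi* genes, Cre activity and tamoxifen itself cannot be told apart in this design. The study describes the deletion in these cultures as inefficient, and the ages of the mice are not given in the sources used here.

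BCL2 family proteins decide whether the outer mitochondrial membrane stays intact. BCL2, BCL-XL (*Bcl2l1*), BCL-W (*Bcl2l2*) and MCL1 keep it closed by holding the effectors BAX and BAK1 and the BH3-only proteins BIM (*Bcl2l11*), BID, BAD, BMF and BIK, which sense stress and start apoptosis. In mouse and human pDCs, BCL2 is known as a main survival factor, and BIM as its counterpart in the turnover of dendritic cells. GFI1 and GFI1B are zinc finger repressors that bind DNA at a core AATC, and GFI1B with GATA1 has been described as a repressor of human *BCL2L1* in erythroid cells.

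The promoter windows of *Bcl2l1* and *Bcl2l11*, which had the widest ranges over the arrays, and of *Bcl2*, which had the largest difference within a single mouse, are shown because the deleted factors bind at a core AATC. The sequences are RefSeq's for GRCm38.p6, from 250 bases before to 50 bases after a transcription start, 5′ to 3′ on the gene's strand. Capitals mark AATC or its reverse complement GATT.
*Bcl2l1* start A, chr2:152828440-152828739, minus strand: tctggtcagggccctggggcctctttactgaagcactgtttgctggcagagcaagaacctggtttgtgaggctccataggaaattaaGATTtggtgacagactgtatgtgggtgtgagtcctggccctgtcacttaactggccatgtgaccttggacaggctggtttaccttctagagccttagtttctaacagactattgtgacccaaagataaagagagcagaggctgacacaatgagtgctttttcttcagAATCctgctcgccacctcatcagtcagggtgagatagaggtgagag
*Bcl2l1* start B, chr2:152830668-152830967, minus strand: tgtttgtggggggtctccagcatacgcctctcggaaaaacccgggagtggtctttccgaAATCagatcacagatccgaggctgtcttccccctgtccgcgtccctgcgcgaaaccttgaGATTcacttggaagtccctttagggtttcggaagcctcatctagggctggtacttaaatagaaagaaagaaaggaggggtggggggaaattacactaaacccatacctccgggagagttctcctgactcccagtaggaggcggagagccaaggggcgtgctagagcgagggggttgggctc
*Bcl2l1* start C, chr2:152831679-152831978, minus strand: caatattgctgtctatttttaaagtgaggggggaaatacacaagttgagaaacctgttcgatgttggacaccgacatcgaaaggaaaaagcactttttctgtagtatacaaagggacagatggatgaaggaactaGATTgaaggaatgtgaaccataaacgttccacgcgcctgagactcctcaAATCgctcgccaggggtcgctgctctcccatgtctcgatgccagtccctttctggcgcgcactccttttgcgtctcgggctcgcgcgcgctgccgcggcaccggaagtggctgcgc
*Bcl2l11* start A, chr2:128125788-128126087, plus strand: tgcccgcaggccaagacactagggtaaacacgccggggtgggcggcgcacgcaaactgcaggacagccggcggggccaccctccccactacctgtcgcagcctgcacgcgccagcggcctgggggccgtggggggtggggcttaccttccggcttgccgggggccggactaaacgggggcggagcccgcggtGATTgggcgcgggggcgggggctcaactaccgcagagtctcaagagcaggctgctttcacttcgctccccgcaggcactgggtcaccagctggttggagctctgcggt
*Bcl2l11* start B, chr2:128127325-128127624, plus strand: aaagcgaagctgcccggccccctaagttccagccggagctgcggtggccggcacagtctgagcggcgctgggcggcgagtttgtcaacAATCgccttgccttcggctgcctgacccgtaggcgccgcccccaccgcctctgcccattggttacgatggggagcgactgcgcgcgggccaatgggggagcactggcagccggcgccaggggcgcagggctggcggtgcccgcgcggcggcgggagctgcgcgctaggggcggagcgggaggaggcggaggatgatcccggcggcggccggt
*Bcl2*, chr1:106714241-106714540, minus strand: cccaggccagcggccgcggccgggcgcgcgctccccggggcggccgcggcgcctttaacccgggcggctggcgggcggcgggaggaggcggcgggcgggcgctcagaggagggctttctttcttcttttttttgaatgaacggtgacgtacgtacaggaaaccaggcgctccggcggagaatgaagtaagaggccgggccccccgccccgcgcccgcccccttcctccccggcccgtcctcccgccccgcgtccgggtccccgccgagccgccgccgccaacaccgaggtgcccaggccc
Each of the 3 windows of *Bcl2l1* held 2 matches and each of the 2 windows of *Bcl2l11* held 1, while that of *Bcl2* held none. Counted from the start site, with -1 as the base before it, the matches of *Bcl2l1* began at -163 and 5 (start A), -191 and -131 (start B) and -115 and -66 (start C). Those of *Bcl2l11* began at -58 (start A) and -162 (start B). Of 15 windows of 9 members in the table, 12 held a match, and so did 73.1% of all 32851 windows of this length. A match of these 4 letters is a description and not a binding site.

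*Gfi1* had 63.2 ± 3.44 in KO and 49.1 ± 6.49 in WT cultures and *Gfi1b* had 244 ± 44.2 in KO and 165 ± 12.9 in WT cultures (SD, n = 3 each). Their log2 differences were 0.37 (standard error 0.12) and 0.55 (standard error 0.16), both with an adjusted p of 0.69 in limma. The unadjusted p values in limma were 0.021 and 0.012, where 5.14% of all probe sets were higher at a p under 0.05. KO was higher in 3 of 3 mice for both genes. Neither gene overlapped between groups, as for 10.2% of all probe sets with KO higher. Without mouse 1 the differences were 0.50 and 0.77 (adjusted p = 0.16 and 0.063 in limma). Each gene has 1 probe set, and whether its probes lie in the deleted parts was not examined. Neither value therefore checks the deletion. For *Gfi1*, the 3 WT arrays and the KO array of mouse 1 were below the background limit of 61.7 explained for *Bik*. The column medians of the arrays were 72.4 to 72.9 in KO and 68.96 to 70.5 in WT. Both cultures of mouse 1 stood apart from those of mice 2 and 3 in markers of macrophages, neutrophils and stromal cells, whose sums were lowest there, so the results are also given within mice and without mouse 1.

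No member of the family passed an adjusted p of 0.05 between KO and WT pDCs in limma, with or without the mouse as a block. None of the 21640 probe sets did either (0% in each fit). At an unadjusted p under 0.05, 1 of 10 members differed without the block, *Bik*, and 2 of 10 with it, *Bik* and *Bcl2l1*. The shares of all probe sets at this threshold were 7.05% without the block (5.14% higher and 1.9% lower in KO) and 13.5% with it (7.46% higher and 5.99% lower), so the members' counts are near what the whole array gives. With both arrays of mouse 1 left out, 0 of 10 members passed the adjusted and 0 of 10 the unadjusted threshold, against 0.499% and 17.6% of all probe sets. In RNA from a sorted population, fewer cells of a type and less RNA per cell cannot be told apart. The median log2 difference, KO minus WT, was -0.040 over the 4 anti-apoptotic and -0.041 over the 6 pro-apoptotic members, against 0.028 over all probe sets. Between the 2 medians lay a difference of 0.00064. Within mice 1, 2 and 3 the anti-apoptotic medians were -0.075, -0.064 and -0.074. The pro-apoptotic medians were -0.079, 0.032 and 0.071 in the same mice. The anti-apoptotic minus pro-apoptotic difference was thus 0.0035, -0.096 and -0.15 in mice 1, 2 and 3, with no test since the members were chosen as a group. The probe sets above the median level of the array, which include all members but *Bik*, had a median of -0.045.

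**Figure D1:**
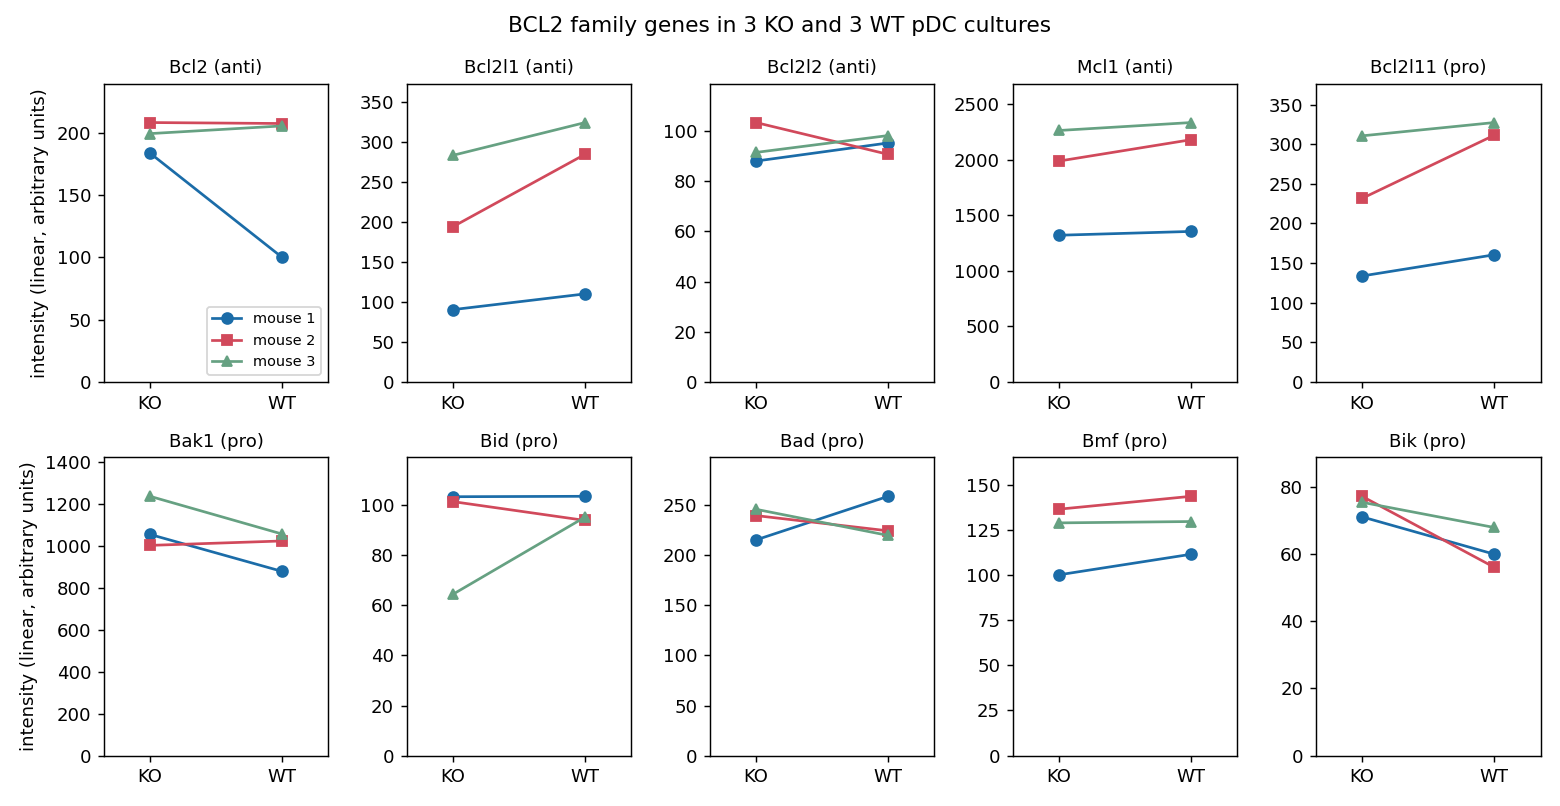
Intensity (linear scale, arbitrary units) of each of the 10 members in the KO (left) and WT (right) pDC culture of each mouse, with 1 symbol and line per mouse. Only *Bik* has all 3 KO cultures above all 3 WT cultures, and *Bcl2* separates the WT culture of mouse 1, at 99.9, from the other 5, at 184 to 208.

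*Bcl2*, the founding survival gene of the family (chr1:106538176-106714290, GRCm38.p6), had intensities of 184, 208 and 199 in the KO cultures of mice 1, 2 and 3. In the WT cultures of mice 1, 2 and 3 it had 99.9, 207 and 205. The WT culture of mouse 1 alone was low, and the other 5 arrays lay within 184 to 208. The KO mean was 197 ± 12.4 and the WT mean 171 ± 61.5 (SD, n = 3 each). The log2 difference was 0.28 (95% interval -0.42 to 0.98, adjusted p = 0.84 in limma), and an exact two-sided permutation test over the 6 arrays gave p = 0.8, where the smallest possible is 0.1 and the pairing by mouse is not used. Within mouse 1 the difference was 0.88, a size that 0.933% of all probe sets exceeded in that mouse in either direction. Within mice 2 and 3 it was 0.0054 and -0.044. Without both arrays of mouse 1 it was -0.019, with a standard error of 0.11.

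*Bcl2l1*, which encodes BCL-XL (chr2:152758732-152833803), had 90.4, 194 and 283 in the KO cultures of mice 1, 2 and 3. The WT cultures had 110.1, 285 and 324 in the same order. Every KO culture was below the WT culture of its own mouse, but the groups overlapped, because both cultures of mouse 1 were far below the others. The KO mean was 189 ± 96.6 and the WT mean 239.8 ± 114 (SD, n = 3 each). The log2 difference was -0.34 (95% interval -1.68 to 0.99, adjusted p = 0.90 in limma). With the mouse as a block the interval was -0.61 to -0.076, and the adjusted p was 0.32 (unadjusted 0.019). The differences within mice 1, 2 and 3 were -0.28, -0.55 and -0.19. With 1 array of mouse 1 left out, the level of that mouse enters the difference, which was 0.11 with its KO array left out and -0.83 with its WT array left out. With both left out it was -0.37.

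*Mcl1*, a short-lived survival protein needed in many blood lineages (chr3:95656944-95663179), had 1321, 1989.5 and 2265 in the KO cultures of mice 1, 2 and 3. The WT cultures had 1356, 2182 and 2337. The order of the mice was the same in both groups, and the differences within mice 1, 2 and 3 were -0.037, -0.13 and -0.045. The log2 difference was -0.072 (95% interval -0.75 to 0.61, adjusted p = 0.97), and with the block the interval narrowed to -0.30 to 0.16. *Bcl2l2*, which encodes BCL-W, had 88.1, 103 and 91.5 in the KO cultures and 95.3, 90.7 and 98.2 in the WT cultures. It varied least of the members over the 6 arrays, with a range of 0.23 on the log2 scale, and its difference was -0.0091 (95% interval -0.25 to 0.23, adjusted p = 0.99).

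*Bcl2l11*, which encodes the BH3-only protein BIM (chr2:128126038-128162547), had 134, 232 and 311 in the KO cultures of mice 1, 2 and 3. Its WT cultures had 160.5, 311 and 327. As for *Bcl2l1*, each KO culture was below the WT culture of the same mouse and both cultures of mouse 1 were lowest. The KO mean was 225 ± 88.6 and the WT mean 266 ± 92.1 (SD, n = 3 each), a log2 difference of -0.26 (95% interval -1.21 to 0.70, adjusted p = 0.89). With the mouse as a block the interval was -0.52 to 0.0082 and the adjusted p was 0.38 in limma. Within mice 1, 2 and 3 the differences were -0.26, -0.43 and -0.076. Leaving out the KO array of mouse 1 gave 0.079, leaving out its WT array gave -0.59, and leaving out both gave -0.25. *Bmf*, another BH3-only gene, had 100.1, 136 and 129 in the KO cultures and 111, 144 and 129.5 in the WT cultures. Its KO values were below their WT partners by at most 0.16 on the log2 scale, and the mean difference was -0.079 (95% interval -0.46 to 0.30).

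*Bik*, a BH3-only gene whose product sits at the endoplasmic reticulum (chr15:83526790-83544635), had 71.1, 77.2 and 75.4 in the KO cultures of mice 1, 2 and 3. In the WT cultures of mice 1, 2 and 3 it had 60.0, 56.1 and 67.9. It was the 1 member whose KO and WT cultures did not overlap, which held with KO higher for 10.2% of all probe sets and with KO lower for 4.65%. The KO mean was 74.6 ± 3.15 and the WT mean 61.3 ± 6.04 (SD, n = 3 each), a log2 difference of 0.29 (95% interval 0.031 to 0.54). The unadjusted p was 0.033 and the adjusted p 0.69 in limma, and the exact two-sided permutation test gave p = 0.1, the smallest it can give. The unadjusted p for *Bik* in limma was 0.058 after quantile normalization of the deposited values, 0.061 with arrays centred on their median and 0.053 with centring and the block. With array weights it was 0.0077, with low values raised to the 20th percentile 0.023, and with trend and robust eBayes 0.035. The adjusted p values under these last settings were 0.15, 0.52 and 0.70. KO was higher in 3 of 3 mice, by 0.25, 0.46 and 0.15. These levels are close to background. The WT cultures of mice 1 and 2 were below 61.7, the background limit, which is the level that 95% of values of olfactory and vomeronasal receptor probe sets stay under (genes that blood cells are not known to use). No other member fell below that level on any array.

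*Bak1*, the effector that forms pores in the mitochondrial membrane, had 1056, 1003.5 and 1238 in the KO cultures and 879, 1025 and 1058 in the WT cultures. KO was higher in mice 1 and 3, by 0.26 and 0.23, and at -0.030 in mouse 2, with a mean log2 difference of 0.15 (95% interval -0.15 to 0.46, adjusted p = 0.79). *Bid*, which links death receptors to mitochondria once caspase 8 cleaves it, had 103, 101 and 64.4 in the KO cultures and 103, 93.8 and 95.2 in the WT cultures. The KO culture of mouse 3 was the single low array, with differences of -0.0024, 0.11 and -0.56 in mice 1, 2 and 3. The mean of -0.15 for *Bid* (95% interval -0.63 to 0.32) became 0.071 without that array. *Bad*, which is held inactive by phosphorylation downstream of growth factors, had 215, 239.5 and 246 in the KO cultures and 259, 224 and 219.7 in the WT cultures. Its differences were -0.27, 0.095 and 0.16 in mice 1, 2 and 3, and -0.0030 on average (95% interval -0.27 to 0.26, adjusted p = 0.997).

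By direction, 4 of 10 members were lower in KO in all 3 mice, *Bcl2l1*, *Mcl1*, *Bcl2l11* and *Bmf*, of which 2 are anti-apoptotic and 2 pro-apoptotic. The share of all probe sets lower in all 3 mice was 17.4%, and 28.4% of those above the median level. Higher in all 3 mice was 1 of 10, *Bik*, against 21.3% of all probe sets. An absolute log2 difference of at least 0.25 was found for *Bcl2*, *Bcl2l1*, *Bcl2l11* and *Bik*, that is 4 of 10, against 19.1% of all probe sets.

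**Figure D2:**
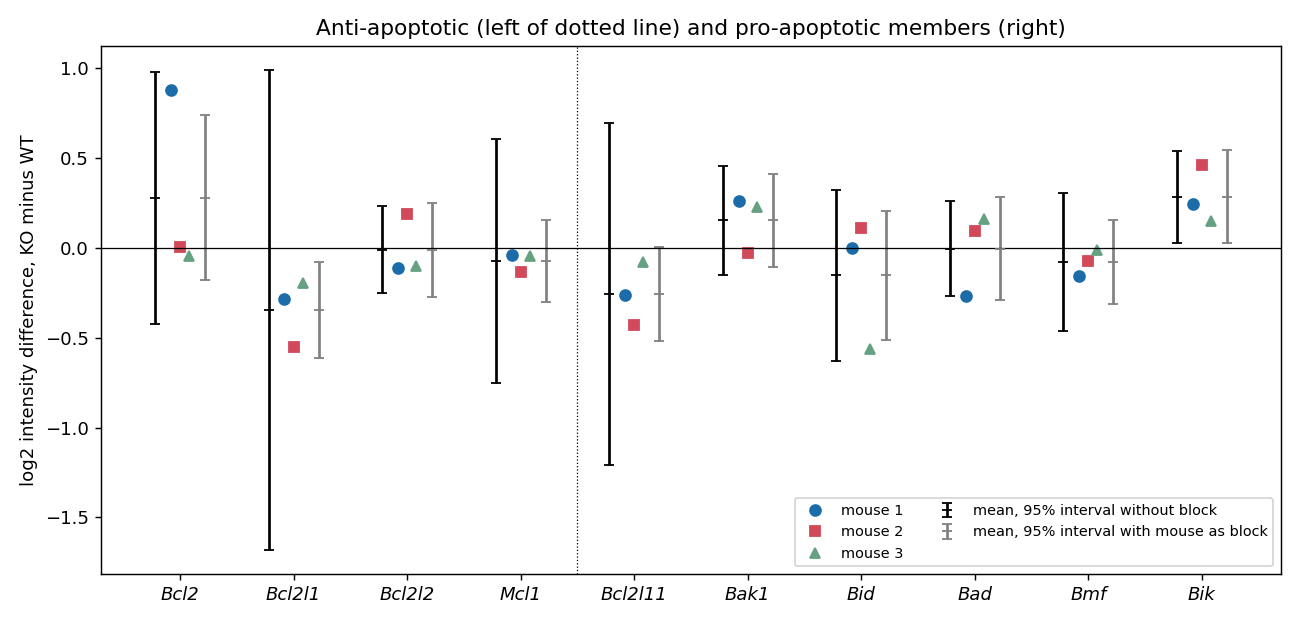
Log2 intensity difference, KO minus WT, of each member. Symbols are the 3 mice, black bars the 95% interval without the block and grey bars that with the mouse as a block. The interval of *Bcl2l1* runs from -1.68 to 0.99 without the block and from -0.61 to -0.076 with it, while the single high point of *Bcl2* is mouse 1, at 0.88.

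The cultures of mouse 1 stood apart in several members. In both groups *Bcl2l1*, *Bcl2l11* and *Mcl1* were at least 1.5-fold higher in mice 2 and 3 than in mouse 1, a pattern shared by 4.29% of all probe sets. The highest over the lowest culture was 3.13-fold in KO and 2.95-fold in WT for *Bcl2l1*. For *Bcl2l11* these ratios were 2.32-fold in KO and 2.04-fold in WT, and for *Mcl1* 1.71-fold in KO and 1.72-fold in WT. *Bcl2* had a ratio of 1.13 in KO and 2.08 in WT.

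The sorted populations of mouse 1 also differed in markers of other cells. The 14 measured of 16 pDC markers summed to 49800, 36013 and 33157 in the KO cultures of mice 1, 2 and 3. In the WT cultures they summed to 51794, 27838 and 22896, and none of the 14 was at background on every array. Within mice 1, 2 and 3 the KO sum was 0.961, 1.29 and 1.45 times the WT sum. The 15 measured of 17 macrophage and monocyte markers summed to 6458, 27341 and 30513 in the KO cultures and to 7486, 34004 and 36216 in the WT cultures, with *Marco* alone at background on every array. All 15 neutrophil markers together gave 779, 2987 and 5420.5 in the KO cultures and 1596, 9533 and 12258 in the WT cultures, with *Ctsg*, *Ly6g* and *Cxcr2* at background. The 13 stromal cell markers gave 812, 4059 and 4453 in the KO cultures and 842, 11101 and 12918 in the WT cultures, with *Lum* at background. In both groups mouse 1 was therefore highest in pDC markers and lowest in the other 3 lists, as it was lowest in *Bcl2l1*, *Bcl2l11* and *Mcl1*. Within each mouse the macrophage sum in KO was 0.863, 0.804 and 0.843 times that in WT, and the neutrophil sum 0.488, 0.313 and 0.442 times. The neutrophil markers did not all go this way. Of the 15, 8 were lower in KO in all 3 mice and 1, *Ctsg*, was higher. *S100a8* and *S100a9* were large parts of the sum, with 1807 and 1533 in the KO culture of mouse 3. *Mpo* had 82.9, 151 and 271 in the KO cultures and 41.2, 201 and 163 in the WT cultures. The part of macrophages, neutrophils and other cells, B cells included, in the lower *Bcl2l1* and *Bcl2l11* values of KO cultures was not tested. The conventional dendritic cell markers summed to 7842 to 8864 in KO and 8118 to 8947 in WT, with *Xcr1* at background. This narrow range joins genes that differ between mice in opposite directions. In the WT cultures of mice 1, 2 and 3, *Cd209a* had 1579, 547 and 369, and *Itgam* had 224, 1157 and 1650. The 9 measured of 10 B cell markers, which a B220+ sort can keep, were also lowest in mouse 1, with 2856, 4449 and 4746 in the KO cultures and 2774, 6174 and 5817 in the WT cultures. T and NK cell markers ran from 1650.1 to 2580.4 in KO and 1149 to 2121 in WT. Of the 12 measured, *Cd3d*, *Ncr1*, *Klrb1c*, *Gzma* and *Gzmb* were at background on every array. *Cd4* and *Cd8a* were the highest on every array, with 1217 and 725 in the KO culture of mouse 1. The 4 measured erythroid markers summed to 1125 to 1805 in KO and 824 to 1664 in WT, with *Klf1* at background. *Tfrc* alone gave most of this sum on every array, with 1598 of 1805 in the KO culture of mouse 1.

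**Figure D3:**
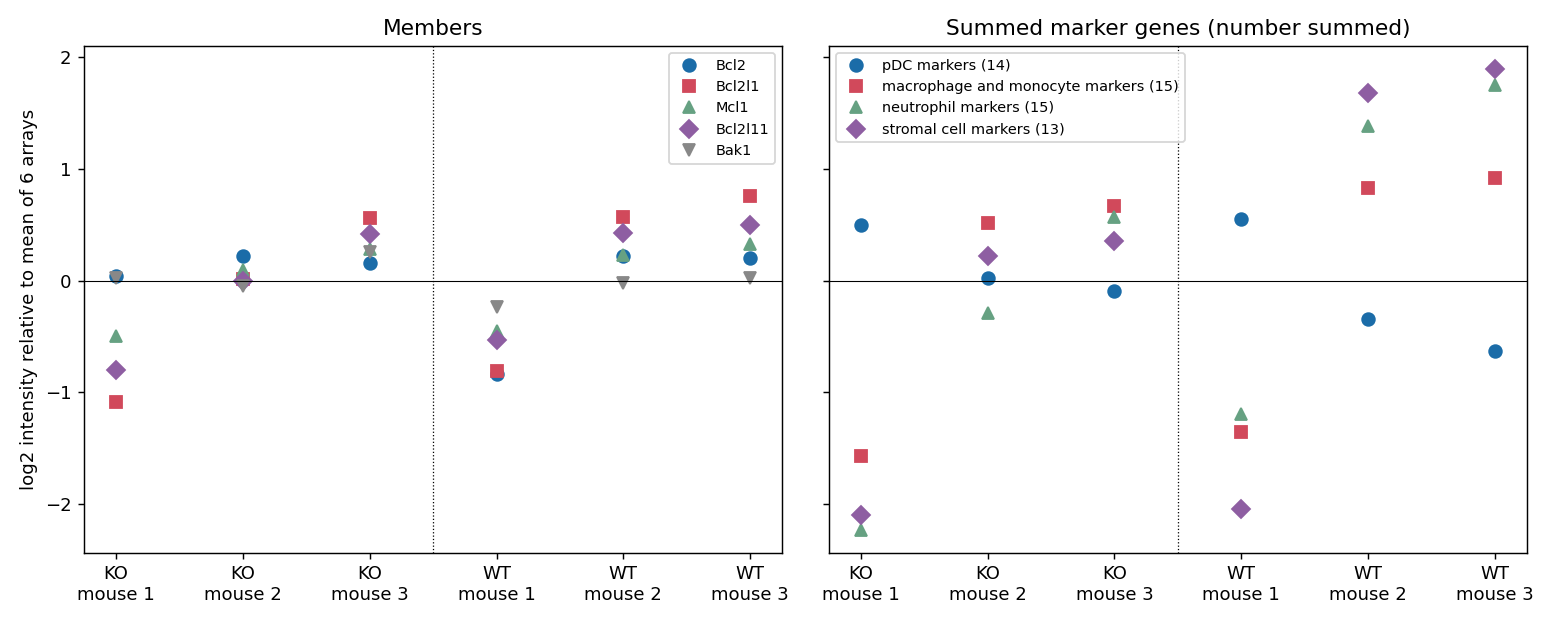
Log2 intensity of 5 members (left) and of 4 summed marker lists (right) on each of the 3 KO and 3 WT arrays, relative to the mean over the 6 arrays. Both arrays of mouse 1 are lowest in *Bcl2l1*, *Bcl2l11* and *Mcl1* and in the macrophage, neutrophil and stromal sums, and highest in the pDC sum.

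*Bcl2l1* had the widest range of the members over the 6 arrays, at 1.84 on the log2 scale, and genes with the most similar profile were sought among 19927 others. By Euclidean distance between log2 values centred on their means over the 6 arrays, the nearest were *Rap2b* (0.25), *Pla2g15* (0.27), *Chst11* (0.27), *Plxnd1* (0.29) and *Nuak1* (0.29). *Rap2b*, a small GTPase of the RAS family, had 174, 369 and 476 in the KO cultures and 203, 503 and 514 in the WT cultures. *Plxnd1*, a semaphorin receptor, had 158, 388 and 556 in the KO cultures and 174, 499.7 and 623 in the WT cultures. The nearest member was *Bcl2l11*, at a distance of 0.52, followed by *Mcl1* at 0.92, whereas *Bid* was the farthest, at 2.12. Among all genes, 144 lay closer than *Bcl2l11* and 700 closer than *Mcl1*, counting *Bcl2l1* itself. Many genes outside the family were thus nearer to *Bcl2l1* than these members. These distances describe 6 arrays from 3 mice.

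Of the other BCL2 family genes, 13 of 17 were measured, and their median log2 difference was 0.0067. None passed the adjusted p in either fit, and 1, *Bbc3*, was higher at an unadjusted p under 0.05 with the block (7.46% of all probe sets were higher at that threshold). *Bbc3*, which encodes the p53-induced BH3-only protein PUMA, had 110.2, 94.1 and 95.1 in the KO cultures and 98.0, 82.4 and 71.8 in the WT cultures. KO was higher in 3 of 3 mice, with a mean of 0.26 (standard error 0.14, adjusted p = 0.73, and 0.36 with the block). *Hrk*, a BH3-only gene of neurons and blood progenitors, was at 0.15 (standard error 0.10), *Bcl2l14* at 0.17 (standard error 0.14) and *Becn1*, an autophagy protein with a BH3 domain, at -0.13 (standard error 0.11). All 6 arrays of *Bcl2l14* were at background. *Bcl2a1c*, which is named here for its spread and was chosen after its values were seen, belongs to the A1 group of the family. It had 61.6, 309 and 481 in the KO cultures and 50.6, 352 and 539.7 in the WT cultures, a wider gap between mouse 1 and the others than any member had, and a log2 difference of -0.024. Its copies *Bcl2a1a*, *Bcl2a1b* and *Bcl2a1d* share probe sets in the platform table, so its level is uncertain. *Bax* was not analysed here.

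Downstream of mitochondria, 11 of 13 genes of the apoptosome and caspases were measured, with a median of -0.020. *Casp8*, the initiator caspase of death receptors, had 519.8, 518 and 553 in the KO cultures of mice 1, 2 and 3. Its WT cultures had 618, 680.5 and 730.4. The groups did not overlap, as for 4.65% of all probe sets with KO lower, and KO was lower in 3 of 3 mice, with a log2 difference of -0.35 (standard error 0.10, adjusted p = 0.69, unadjusted 0.012 in limma). It was the 1 gene of this list with an unadjusted p under 0.05, where 1.9% of all probe sets were lower at that threshold. *Cycs*, cytochrome c, was at -0.22 (standard error 0.11), *Parp1*, a caspase substrate, at -0.20 (standard error 0.12) and *Cflar*, the inhibitor of caspase 8, at -0.13 (standard error 0.15). *Cycs* and *Cflar* have 3 probe sets each, of which only the one with the highest mean is given.

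Of the 12 genes of IAP proteins and mitochondrial release factors, all were measured and 11 were lower in KO by their mean. Among all probe sets 44.1% were, and 61.4% of those above the median level. Their median was -0.14 over all arrays and 0.013, -0.22 and -0.15 within mice 1, 2 and 3. Quantile normalization of the deposited values moved the median to -0.059. Lower in all 3 mice were 4 of 12, against 17.4% of all probe sets and 28.4% of those above the median level. All 12 genes are above that level. *Aifm1*, a flavoprotein released from mitochondria, had 198, 239 and 222 in the KO cultures and 279, 261 and 268 in the WT cultures, again without overlap (4.65% of all probe sets with KO lower). Its log2 difference was -0.30 (standard error 0.10, adjusted p = 0.69, unadjusted 0.025). *Vdac2*, the mitochondrial channel that recruits BAK1, was at -0.28 (standard error 0.20) and *Endog* at -0.18 (standard error 0.14). *Vdac2* has 2 probe sets, of which only the one with the higher mean is given. *Birc5*, the mitotic IAP survivin, went the other way through 1 mouse. It had 371, 202 and 184 in the KO cultures and 136, 218 and 206 in the WT cultures, so that mouse 1 gave 1.45 and mice 2 and 3 gave -0.12 and -0.16. The WT culture of mouse 1, lowest in *Bcl2*, was also lowest in *Birc5*.

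Among 14 measured of 15 upstream regulators, 12 were lower in KO by their mean, against 44.1% of all probe sets and 61.4% of those above the median level. The median was -0.11 over all arrays, -0.15, -0.16 and -0.10 within mice 1, 2 and 3, and -0.036 after quantile normalization of the deposited values. *Usp9x*, the deubiquitinase that stabilises MCL1, had 584, 522 and 531 in the KO cultures and 639.7, 645 and 639 in the WT cultures. *Ywhaz*, a 14-3-3 protein that holds phosphorylated BAD, had 1369, 1438 and 1179 in the KO cultures and 1583, 1617 and 1635 in the WT cultures. *Ywhaz* has 2 probe sets, and these values are only of the one with the higher mean. Neither gene overlapped between groups (4.65% of all probe sets with KO lower did not), and their log2 differences were -0.24 (standard error 0.089) for *Usp9x* and -0.28 (standard error 0.11) for *Ywhaz*, each with an adjusted p of 0.69 in limma. *Akt1*, the kinase that phosphorylates BAD, was lower in 3 of 3 mice, with differences of -0.32, -0.39 and -0.20 and a mean of -0.30 (standard error 0.17, adjusted p = 0.73, and 0.32 with the block). *Dynll2*, the dynein light chain that binds BMF, was at -0.14 (standard error 0.11). None of these 14 genes passed the adjusted p in either fit. *Trp53* was not analysed here.

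**Figure D4:**
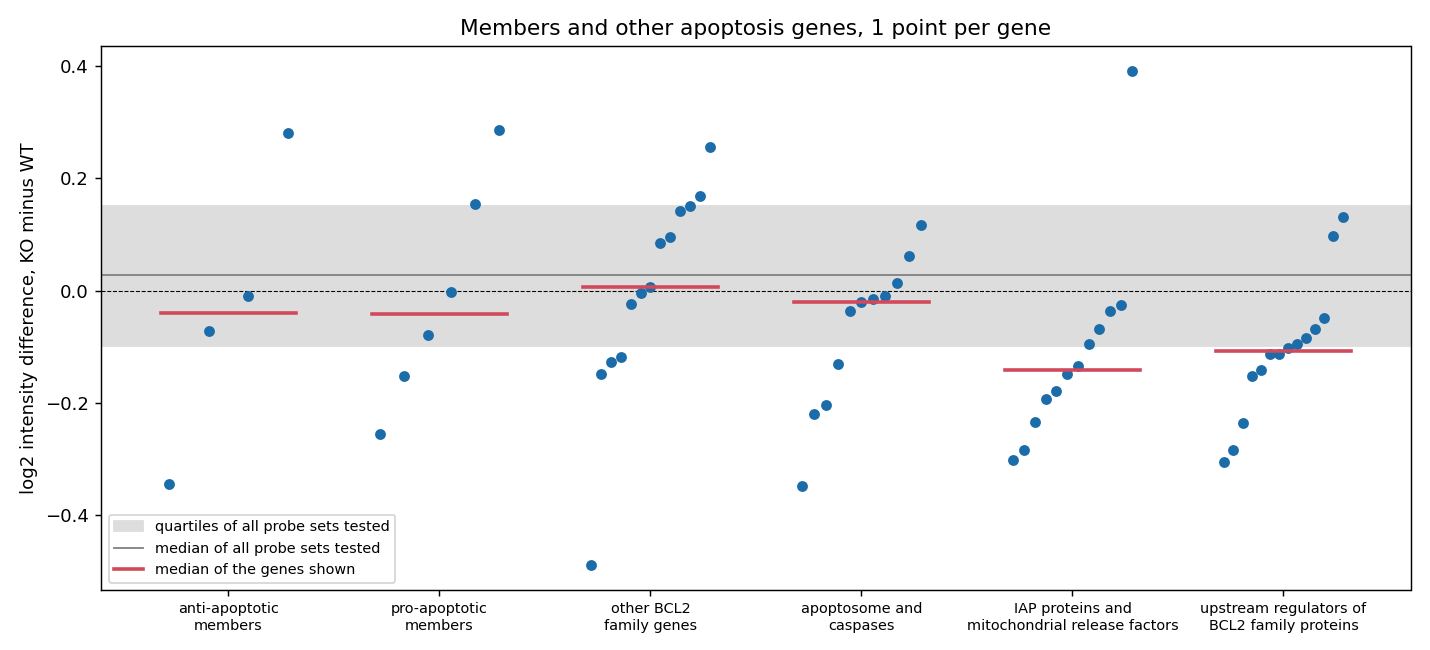
Log2 intensity difference, KO minus WT, of the members and of the 4 lists of other apoptosis genes, with 1 point per gene, the median of each group as a red line and the quartiles of all probe sets (-0.098 to 0.15) shaded. The lists of IAP proteins with release factors and of upstream regulators have medians of -0.14 and -0.11, and the anti-apoptotic and pro-apoptotic members -0.040 and -0.041.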

How the data were processed

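The authors deposited 1 intensity per probe set and array, on a linear scale, for 34760 probe sets of 6 Affymetrix Mouse Gene 1.0 ST arrays, made from 200 ng of total RNA each. The columns of deposited intensity have medians that lie close together, but whether arrays were normalized to each other, and the methods of background correction and summary, are not given in the sources used here. Normalization between arrays would remove shifts shared by most genes. There is no read depth behind these values, and precision is limited by having 3 arrays a group. The cultures are described as coming from 3 separate mice.

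These intensities were log2-transformed, with no filter, and the 21640 probe sets that the platform table pairs with exactly 1 symbol were fitted (1321 have several symbols and 11799 none). The difference KO minus WT came from limma 3.58.1 (lmFit, then eBayes; R 4.3.3). Its two-sided p-values were adjusted over all fitted probe sets by the Benjamini-Hochberg method, at a threshold of 0.05. The study names GenePattern for its array comparison and no test. It lists differing genes from these arrays by a fold cutoff, a rule unlike the adjusted p used here. The labels give each mouse a KO and a WT culture, and deviations from the group means correlated within mice 1, 2 and 3 at 0.81, 0.51 and 0.67 (Pearson's r across probe sets). Arrays of mice 2 and 3 also correlated across mice, at 0.42 and 0.50, while all pairs of mouse 1 with another mouse were below 0. The deviations of a group sum to 0 for each probe set, so the signs across mice are partly fixed by the centring. Since both cultures of a pair come from the same animal, the mouse entered a further fit as a block. Intervals are 95% from the moderated standard errors. Other settings were quantile normalization of the deposited values, centring, a floor, a filter on dim probe sets, trend with robust eBayes, array weights and leaving out arrays or mice. Only the limma fit, with and without the block, was tested on simulated data. Members and lists were chosen with earlier results of these data known. Named genes are all members, the up to 4 genes of each list with the smallest p (2 with the block), and the 5 profiles nearest to the member with the widest range. A gene with several probe sets is represented by the one with the highest mean over the 6 arrays. A probe set counts as at background where all 6 arrays are under the limit set by 95% of the values of 1208 olfactory and vomeronasal receptor probe sets.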

Additional observations from a re-analysis of the deposited data

How the results depend on the processing

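No member reached an adjusted p of 0.05 in any of 169 tested member values under other settings, where the smallest was 0.15. With all arrays the count of probe sets at this threshold was 0, except for 4 with values below the 20th percentile raised to it. The count stayed between 0 and 108 when arrays were left out, and the 108 came with both arrays of mouse 1 left out. The replicate block, the mouse as a term, changed no adjusted call, and gave 0 probe sets, although 2911 passed an unadjusted p under 0.05 with it and 1525 without it. *Bik* and *Bak1* stayed higher in KO under every setting, but *Bik* was among the probe sets removed by the filter on dim values. Array weights turned *Bcl2l2* to 0.074, and *Bad* was 0.082 after quantile normalization of the deposited values and 0.072 with array weights. Array weights also moved *Bcl2* to 0.031, *Bcl2l1* to -0.54, *Bcl2l11* to -0.39, *Mcl1* to -0.16, *Bak1* to 0.068 and *Bid* to -0.074, and quantile normalization moved *Bmf* to -0.029 and *Mcl1* to -0.038. The anti-apoptotic median was -0.024 after quantile normalization, -0.070 with arrays centred on their median (also with the replicate block, a combination chosen after seeing the data) and -0.062 with array weights. The pro-apoptotic median was 0.026 after quantile normalization and -0.0029 with array weights, and the difference of the medians -0.050 and -0.059 under the same settings.

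With 1 array or 1 mouse left out, the log2 difference ranged between -0.069 and 0.46 for *Bcl2*, -0.83 and 0.11 for *Bcl2l1*, -0.11 and 0.043 for *Bcl2l2*, and -0.32 and 0.16 for *Mcl1*. It ranged between -0.59 and 0.079 for *Bcl2l11*, 0.065 and 0.25 for *Bak1*, -0.28 and 0.071 for *Bid*, -0.085 and 0.13 for *Bad*, -0.18 and 0.056 for *Bmf*, and 0.20 and 0.36 for *Bik*. The anti-apoptotic median lay between -0.19, with the WT array of mouse 1 left out, and 0.14, with its KO array left out, the pro-apoptotic median between -0.095 and 0.068, and their difference between -0.17 and 0.10. The sign turned with the KO array of mouse 1 left out for *Bcl2l1*, *Bcl2l11*, *Mcl1*, *Bmf*, *Bad* and *Bcl2l2*, with its WT array left out for *Bcl2* and *Bad*, and with both left out for *Bcl2*, *Bad* and *Bcl2l2*. Leaving out the WT array of mouse 2 turned *Mcl1* and *Bmf*. In mouse 3, leaving out the KO array or both arrays turned *Bid* and *Bcl2l2*, and leaving out the WT array turned *Mcl1* and *Bcl2l2*. Where 2 arrays remain in a group, the spread is pooled over both groups. The medians of the IAP and upstream regulator lists stayed below 0. That of the apoptosome and caspase list turned to 0.054 with quantile normalization and 0.019 with the WT array of mouse 1 left out. It was 0.0011 with the KO array of mouse 2 left out. For the other BCL2 family genes the median turned to -0.022 with quantile normalization, -0.023 with centring and -0.034 with array weights. It was also below 0 with mouse 1, its KO array or the KO array of mouse 3 left out. The cause of these shifts was not tested. An absence of adjusted calls with 3 arrays a group does not show that the members act alike in KO and WT.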
